A study of Caenorhabditis elegans with 4 samples.

Results

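A group of 327 broad AMA-1 domains, each made of many short peaks, was picked from the RNA polymerase II peak lists of Caenorhabditis elegans embryos. A domain was a peak of ChIP replicate 1 that overlapped a replicate 2 peak by at least 1 bp, overlapped at least 5 peaks of the series-wide list (called inner peaks here), and held no inner peak of 3000 bp or more. The domains were 327 of the 2838 replicate 1 peaks and 16.1% of the 2037 replicate 1 peaks shared with replicate 2. The remaining 1710 shared peaks served as the background. Among these, 236 also held at least 5 inner peaks but at least 1 of 3000 bp or more. They are called unbroken peaks, after that wide inner peak, and are the class most like the domains. The name does not mean a single inner peak, since they held 7 at the median, against 6 in domains. The rule itself fixed the number of inner peaks and their greatest width, and it favours wide replicate 1 peaks, so these measures are given as description, without a test.

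The study profiled AMA-1 by chromatin immunoprecipitation and sequencing (ChIP-seq) in mixed-stage embryos of the wild-type laboratory strain N2, from a population of males and hermaphrodites at 20 degrees Celsius, with an affinity-purified rabbit polyclonal antibody, SDQ2358. It comprised 2 ChIP libraries and 2 input DNA libraries. All libraries share a growth protocol whose name includes RNAi, and the unexplained tag RiIMB1 stands in each title, so an untreated comparison is lacking. Each title also carries the label SDQ2357Q2358, and the titles alone do not tell whether the replicates differ in antibody. Whole embryos of several stages were pooled, so a domain may combine polymerase of different cells. Whether the replicates are separate cultures is not stated, so they may be technical repeats.

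AMA-1 is the largest subunit of RNA polymerase II, the enzyme that transcribes messenger RNA genes. Polymerase II is loaded at promoters, can dwell near the start site, travels along the gene body and lingers past the polyadenylation site, so its ChIP signal can be a sharp peak at a promoter, a plateau over a transcribed gene, or both. The worm genome is compact, many genes lie close together and some are transcribed as operons, so the occupied stretches of neighbouring genes can run into each other in a peak list. Where a caller cuts such a stretch depends on its settings as well as on the signal. No gene was assigned to a domain, because the peaks are in WormBase WS220 coordinates and the available gene annotation is of another assembly, WBcel235.

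The 3 peak lists differed in grain. The replicate 1 list had a median peak width of 3110 bp, the replicate 2 list (2843 peaks) one of 2751 bp and the series-wide list (15152 peaks) one of 345 bp. The deposited scores ranged from 50.07 to 3233.06 in both replicate lists and from 1.3 to 199.43 in the series-wide list, so scores were compared only within a list. Neighbouring peaks of the series-wide list were never closer than 43 bp on any chromosome, whereas replicate peaks came as close as 1 bp. Read depth is unknown.

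A typical domain was a stretch of about 6 kb with 6 inner peaks, about 0.8 kb apart from centre to centre. The domains had a median width of 6144 bp in replicate 1, with quartiles of 4788 and 8077.5 bp, and ranged from 2216 to 16573 bp. The unbroken peaks had a median of 13281.5 bp, and all other shared peaks that held an inner peak had a median of 3440 bp. Together the domains spanned 2191452 bp, or 19.0% of the bases of all shared peaks. Most of the widest shared peaks carried an inner peak of 3 kb or more instead. Of the 123 shared peaks of 15 kb or more, 6 were domains (4.88%) and 117 held such a wide peak. Between 5 and 7 kb the kinds were nearly equal, with 116 domains and 103 peaks that held a wide inner peak among 288. Below 3 kb, 17 of 763 shared peaks (2.23%) were domains.

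**Figure D1:**
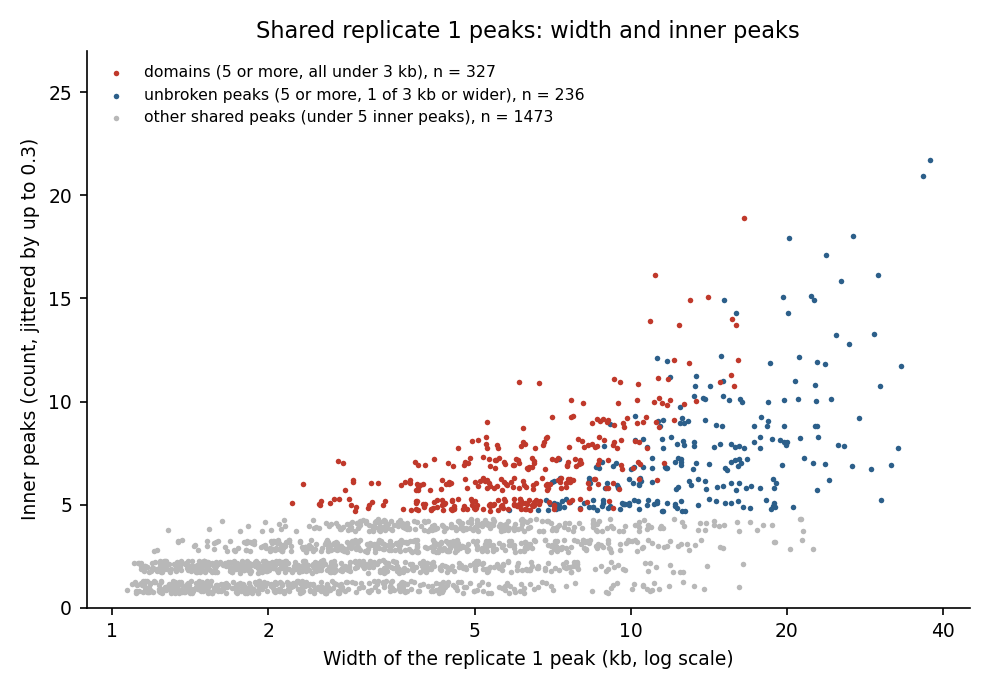
Each point is 1 replicate 1 peak shared with replicate 2, placed by its width (horizontal axis, kb, log scale) and its number of inner peaks (vertical axis, count, jittered). Domains (red, n = 327) lie at 5 inner peaks and above, with quartiles of 4.79 and 8.08 kb, unbroken peaks (blue, n = 236) further right with a median of 13.3 kb, and other shared peaks (grey) hold under 5 inner peaks.

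Most domains were near the lower limit of the rule. There were 109 domains with 5 inner peaks (33.3%), 78 with 6, 54 with 7, 33 with 8, 21 with 9 and 32 with 10 or more (9.79%). The domain with the most had 19. Those with more inner peaks were wider, while the spacing hardly moved. Median width was 5018 bp with 5 inner peaks, 6317 bp with 7 and 11785 bp with 10 or more, and median spacing was 838.75, 755.5 and 892.5 bp in the same classes. Across the 327 domains the Spearman correlation of width was 0.60 with the number of inner peaks and 0.55 with the median spacing, and that of the number of inner peaks with the median spacing was -0.096. These correlations run over regions of 1 library and are descriptions, and the lower limit of 5 inner peaks shapes them.

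The limits of the rule cut through a continuum. The 109 domains with 5 inner peaks, just inside the count limit, had a median width of 5018 bp and a median replicate 1 score of 468.03. Just outside it lay 182 shared peaks with 4 inner peaks, all under 3000 bp, whose medians were 3853.5 bp and 374.355. Just inside the width limit, the 3 domains with the widest inner peaks held peaks of 2987, 2959 and 2952 bp. Just outside it, the 3 nearest unbroken peaks held 3003, 3020 and 3026 bp. A further 71 replicate 1 peaks had 5 or more inner peaks, all short, but no replicate 2 partner, with a median width of 4983 bp. The shared ones thus made up 327 of 398 such peaks, or 82.2% (95% Wilson interval 78.1 to 85.6%, which covers counting error only and treats peaks as independent).

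Most inner peaks were under 500 bp wide, and the gaps between them were shorter at the median. The domains held 2220 different inner peaks, 14.7% of the series-wide list. Only 1 of them reached into a pair of domains. Inner peaks had a median width of 439 bp, with quartiles of 247 and 856 bp. The median over the whole series-wide list was 345 bp, so inner peaks were not short for that list. The widest inner peak of a domain had a median width of 1577 bp. Of the 2220, 1223 (55.1%) were under 500 bp and 439 (19.8%) were 1000 bp or more. Over the 1894 neighbouring pairs inside domains the median gap from edge to edge was 165 bp, with quartiles of 93 and 328 bp. Gaps under 100 bp made up 27.5% of these pairs, gaps from 100 to under 200 bp 29.7%, gaps from 200 to under 500 bp 30.0%, and gaps of 1000 bp or more 2.80%. Among all 15146 neighbouring pairs of the series-wide list, in or out of domains, 34.6% of the gaps were 1000 bp or more. Pairs inside domains lie under 1 replicate 1 peak, whereas the whole list includes pairs between separate peaks, so this difference is largely built in.

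The gaps inside domains were about as long as those elsewhere in shared peaks, and the difference in spacing lay with the widths of the inner peaks. Median gaps were 165 bp in domains, 171 bp in unbroken peaks and 168 bp over all other shared peaks with at least 2 inner peaks. Median inner widths were 439 bp in domains, 557 bp in unbroken peaks and 619.5 bp in all other shared peaks. Median spacing from centre to centre was 809 bp in domains, with quartiles of 538.625 and 1195.62 bp, 1165.5 bp in unbroken peaks and 1053.5 bp in all other shared peaks. The width limit bears on inner width and spacing directly. It does not set the gaps directly.

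**Figure D2:**
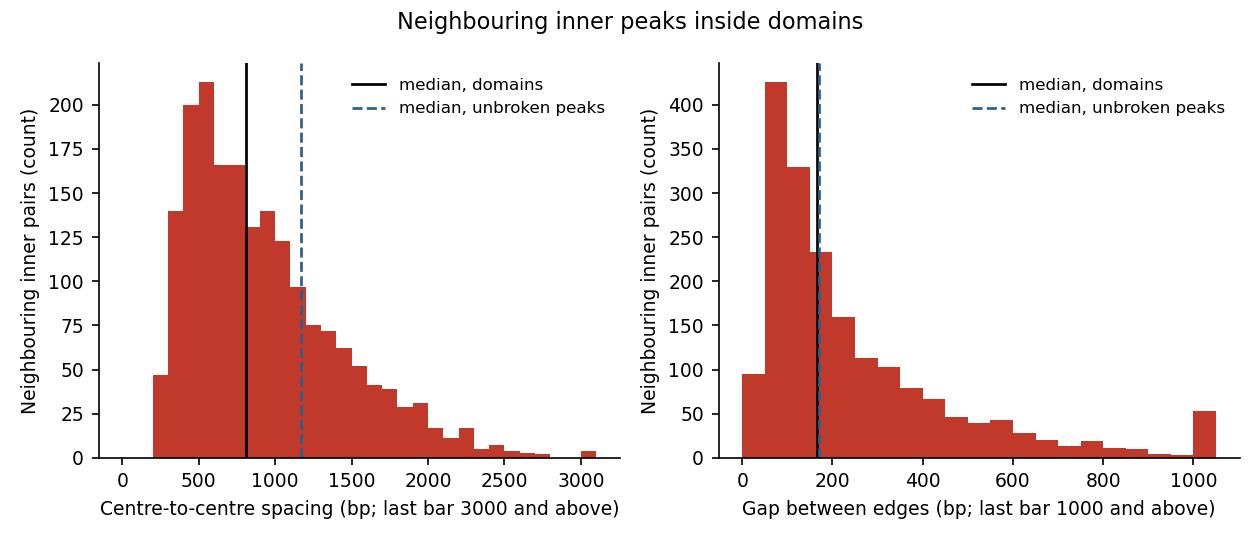
Histograms of the 1894 neighbouring pairs of inner peaks inside domains, with centre-to-centre spacing on the left and edge-to-edge gap on the right (both in bp, vertical axes in pairs). Lines mark the medians: spacing was 809 bp in domains (solid) and 1165.5 bp in unbroken peaks (dashed), while the gap medians of 165 and 171 bp nearly coincide.

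The inner peaks did not form a regular ladder. Spacings of 500 to 1000 bp were the most frequent class (816 of 1894 pairs, 43.1%), followed by 1000 to 1500 bp (22.7%) and under 500 bp (20.4%). Within a domain the coefficient of variation of spacing had a median of 41.9% with quartiles of 30.1 and 52.9%, and the longest spacing was 3.02 times the shortest at the median. In unbroken peaks the median coefficient was 75.3% and the longest spacing was 7.71 times the shortest, which the presence of a wide peak among short ones contributes to by construction. The longest gap within a domain had a median of 474 bp and reached 3039 bp.

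Inner peaks covered most of a domain, and less of its edges. At the median 67.2% of a domain's bases lay under inner peaks, with quartiles of 56.9 and 76.0% and extremes of 25.1 and 92.2%. The median was 82.3% in unbroken peaks. With each domain divided into 10 equal parts, the mean cover by inner peaks was 42.9% in the first part and 42.5% in the last, and stayed between 69.5 and 73.2% in the parts between them. On average the replicate 1 peak thus reached beyond the inner peaks on both sides. The same profile was not computed for other shared peaks, so the lower cover at the edges may not be particular to domains. The reverse was less frequent: in 73 domains (22.3%) an inner peak ran past an edge of the replicate 1 peak.

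**Figure D3:**
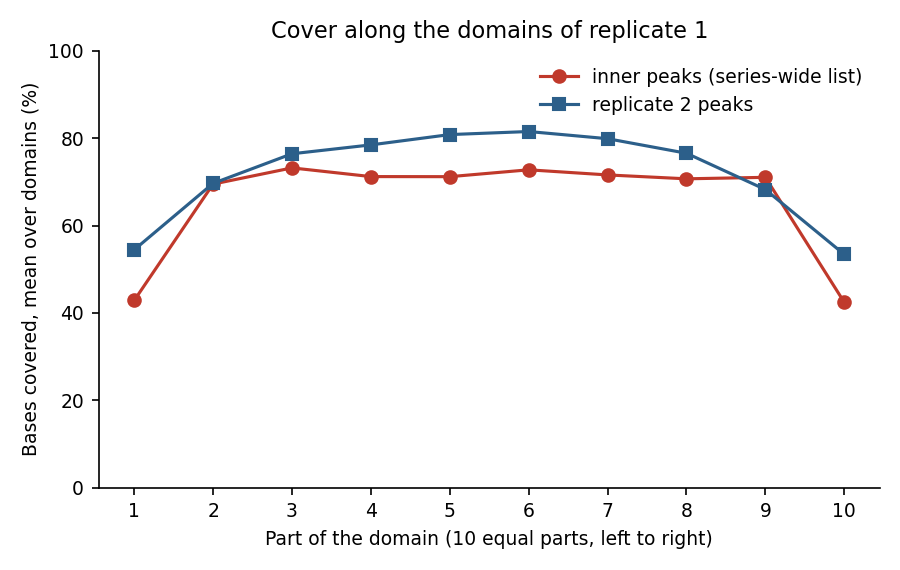
Mean share of bases covered (vertical axis, %) in each of 10 equal parts of the 327 domains, from left to right edge, by inner peaks (red circles) and by replicate 2 peaks (blue squares). Inner peaks cover 42.9 and 42.5% of the outermost parts and 69.5 to 73.2% of the others. Replicate 2 cover is highest in part 6, at 81.5%.

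The strongest inner peak stood at an end of the domain about as often as even placement would give. The inner peak of highest score was the first or last in 99 domains (30.3%, interval 25.6 to 35.5%). An even placement over the inner peaks of each domain would put it there in 31.7%. The interval covers counting error only and treats domains as independent. Under 10 alternatives of the rule the share ran from 23.85 to 36.15%, and the even share for those was not computed. First and last inner peaks had a median score of 6.23 and a median width of 413.5 bp, and those between them 6.8 and 450.0 bp. In 173 domains (52.9%) the strongest inner peak was also the widest. The widest inner peak held 34.9% of the summed inner width at the median, against 51.8% in unbroken peaks.

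In replicate 1 domains scored below unbroken peaks, and their median, but not their upper quartile, was above that of all other shared peaks. Their median replicate 1 score was 593.63, with quartiles of 275.435 and 1032.31, against 1844.38 for unbroken peaks and 438.37 for all other shared peaks. The quartiles of all other shared peaks were 147.41 and 1693.33. A score of 3100, at or above which 286 peaks of that list stand, was reached by 5 domains (1.53%). It was reached by 78 unbroken peaks (33.1%) and by 277 of all other shared peaks (16.2%). The difference from peaks with a wide inner peak was also present at like width. Up to 10 kb the domains' median at like width was also below that of shared peaks with fewer than 5 inner peaks, all short. Between 3 and 5 kb the median was 381.17 for domains and 509.17 for that class. Between 5 and 7 kb the median replicate 1 score was 667.03 for domains, 2925.18 for shared peaks that held an inner peak of 3 kb or more, and 881.37 for shared peaks with fewer than 5 inner peaks, all short. Between 7 and 10 kb these medians were 872.67, 3100 and 1095.98, the last over 9 peaks. In replicate 2 the best-scoring partner of a domain had a median score of 334.71. It was 1446.88 for the partners of unbroken peaks and 418.2 for those of all other shared peaks. The medians of domains and of all other shared peaks thus stood in the reverse order to replicate 1. The scores come from the same reads as the rule, so no test was made.

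Single inner peaks scored slightly above the whole series-wide list and below inner peaks of unbroken peaks and of all other shared peaks. Their median score was 6.66, with quartiles of 4.36 and 11.26 and a highest value of 95.19. The median was 8.29 for the inner peaks of unbroken peaks, 8.99 for those of all other shared peaks and 5.86 for all series-wide peaks. The highest inner score within a domain had a median of 18.13, and that within an unbroken peak 49.215. The rule keeps wide inner peaks out of domains, so their lower inner scores may be partly built in. Domains of higher replicate 1 score were wider and more filled. In the 82 domains of lowest score the median width was 4535.5 bp and a median of 59.5% of the bases lay under inner peaks. In the 82 domains of highest score these values were 7575 bp and 75.2%. The gaps did not follow, with medians of 170.2 and 173.2 bp in these same sets.

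Replicate 2 covered domains less completely, and in more pieces, than it covered the other shared peaks as a whole. Replicate 2 peaks covered 77.2% of a domain's bases at the median, with quartiles of 53.7 and 94.8%. The median was 83.6% for unbroken peaks and 93.6% for all other shared peaks. In 113 domains (34.6%) replicate 2 covered 90% or more of the bases, and in 73 (22.3%) less than 50%. A single replicate 2 peak stood against 239 domains (73.1%), a pair against 70 (21.4%), 3 against 16 and 4 or more against 2. Among all other shared peaks 90.6% had a single partner, and among unbroken peaks 59.7%. Width differs between these classes, and a wider peak can meet more partners. For the 239 domains with a single partner the median width was 5758 bp in replicate 1 and 4645 bp in replicate 2, and 172 of them (72.0%) were wider in replicate 1. Their left edges lay 620 bp apart at the median and their right edges 642 bp.

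Most breaks of replicate 2 inside domains overlapped a gap between inner peaks, and the rate for breaks placed elsewhere is unknown. Of the 111 breaks between neighbouring replicate 2 peaks inside domains, 86 (77.5%) overlapped such a gap by at least 1 bp. The breaks had a median length of 341 bp, and gaps between inner peaks took up 22.0% of such a domain at the median. That is a share of bases, not the rate at which breaks of this length would meet a gap by 1 bp. The breaks were longer than the gaps between inner peaks of domains, whose median was 165 bp. How often a break placed elsewhere would meet a gap was not computed, so the overlap is a description only. Of the 2220 inner peaks, 1640 (73.9%) overlapped a replicate 2 peak and 580 did not. Those in a replicate 2 peak had a median width of 520 bp and a median score of 7.77, and those outside 296.5 bp and 5.01. All inner peaks of a domain lay in replicate 2 peaks in 130 domains (39.8%), at least 5 did in 197 (60.2%), and in 18 domains (5.50%) at most 1 did.

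The same rule applied to replicate 2 gave 244 domains of similar build. These replicate 2 peaks, shared with replicate 1, had a median width of 5911 bp and a median of 6 inner peaks, with a median spacing of 811 bp and a median gap of 163 bp. The values in replicate 1 were 6144 bp, 6, 809 bp and 165 bp. The inner peaks come from 1 list in both cases, so the likeness of spacing and gap is partly built in. The regions themselves coincided in part. Of the 327 domains, 163 (49.8%) overlapped a domain made from replicate 2, and of the 244 made from replicate 2, 165 (67.6%) overlapped one of the 327. Among the 239 domains with a single partner, that partner met the rule in 133 cases and had fewer than 5 inner peaks, none wide, in 104.

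The domains that met the rule in both replicates are described here beside the rest. The 163 domains found in both had a median best score of 554.99 in replicate 2 and a median cover by replicate 2 of 93.3%, against 219.835 and 56.3% for the other 164. In replicate 1 their median width was 6101 bp and their median score 523.4, against 6213 bp and 679.16. Their inner peaks were closer, with a median gap of 152 bp against 196.5 bp and a median spacing of 780.5 bp against 850.75 bp. The split uses replicate 2 itself, so higher scores and cover there are built in. It also asks for at least 5 inner peaks under 1 replicate 2 peak, so the closer inner peaks may be partly built in as well.

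The 20 domains with the most inner peaks held 11 to 19 each and were 6.66 to 16.6 kb wide, with a median of 12.7 kb. By chromosome, 7 lay on I, 5 on II, 4 on III, 3 on X and 1 on V. Their cover by replicate 2 ranged from 17.6 to 100% with a median of 69.1%, and their median spacing from 466 to 1441 bp. Some of these regions were thus covered by peaks of both replicates nearly throughout, and others for the most part by the replicate 1 peak alone.

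**Figure D4:**
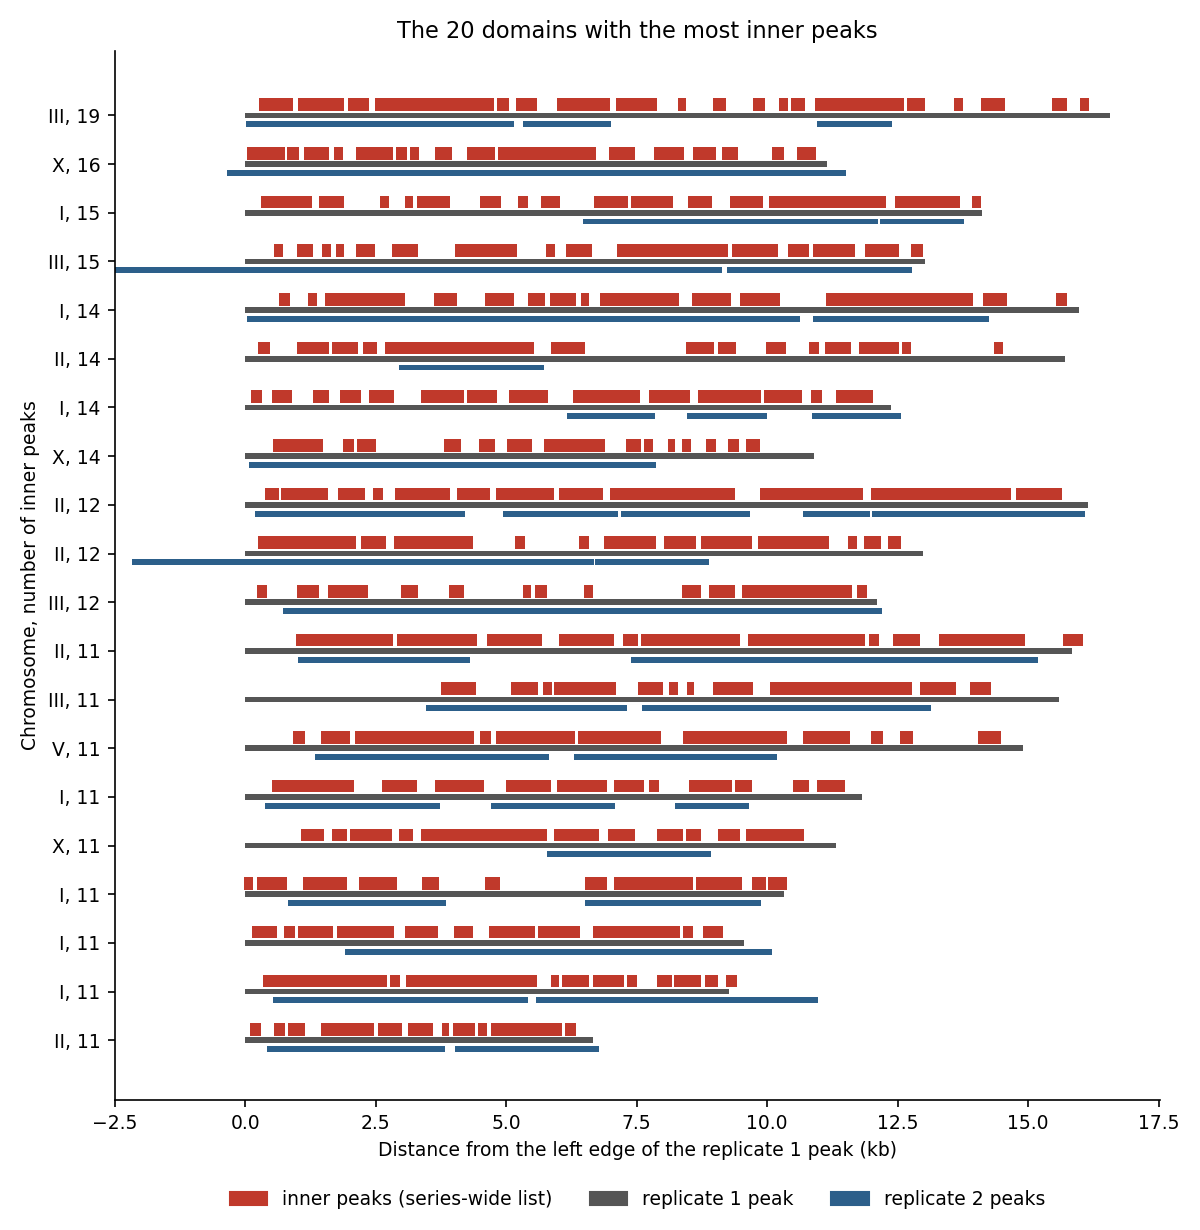
The 20 domains with the most inner peaks, drawn to scale from the left edge of the replicate 1 peak (horizontal axis, kb), one per row, labelled by chromosome and number of inner peaks. Red bars are inner peaks of the series-wide list, grey bars the replicate 1 peak and blue bars replicate 2 peaks, some of which run past the domain. Inner peaks fill 47.2 to 83.5% of each domain, and replicate 2 peaks 17.6 to 100%.

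The domain with the most inner peaks was also the widest. It ran over 16573 bp of chromosome III, at chrIII:5192804-5209376, and held 19 inner peaks with a median spacing of 837 bp and a widest peak of 2290 bp. Its replicate 1 score was 194.93, whereas the best of its 3 replicate 2 peaks scored 1200.77. The replicate 2 peaks covered 49.7% of it and met 8 of the 19 inner peaks.

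On the X chromosome, the domain at chrX:15724810-15735950 had the most inner peaks, 16 in 11.1 kb. A single replicate 2 peak covered all of it and met 16 of 16 inner peaks, with scores of 188.5 in replicate 1 and 210.64 in replicate 2. Another X domain, at chrX:14102079-14112974, had 14 inner peaks and the shortest median spacing of the 20, at 466 bp. Replicate 2 covered 71.6% of that one and met 9 of its inner peaks. The third X domain among the 20, at chrX:7350242-7361550, had a score of 1155.06 in replicate 1 and 67.12 in replicate 2, and 27.8% of it was covered in replicate 2.

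A pair of domains held 15 inner peaks. The one on chromosome III, at chrIII:6593307-6606324, was covered to 97.2% by replicate 2, with 15 of 15 inner peaks met, and scored 1395.46 in replicate 1 and 154.57 in replicate 2. For the one on chromosome I, at chrI:3432360-3446470, replicate 2 covered 51.4% and met 6 of 15. Here the inner peaks of the left part and the last one on the right had no counterpart in replicate 2.

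On chromosome II the domain at chrII:6440563-6456263 showed the weakest agreement of the 20. It had 14 inner peaks over 15.7 kb, a gap of 1952 bp among them, and a replicate 1 score of 551.25. The 1 replicate 2 peak in it covered 17.6% and met 1 inner peak. At chrII:2469842-2485979, in contrast, 6 replicate 2 peaks covered 87.3% of a domain of 16.1 kb and met 12 of 12 inner peaks. That domain was the most filled of the 20, with 83.5% of its bases under inner peaks.

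The highest replicate 1 score of the 20, 3049.68, belonged to the domain at chrI:11517097-11526370, in which 11 inner peaks with a median gap of 76.5 bp covered 82.3% of 9.27 kb. Replicate 2 covered 92.5% of it and met 11 of 11. The lowest, 68.25, belonged to chrIII:6948794-6960895, where 12 inner peaks with a median gap of 573 bp covered 47.2%, yet replicate 2 covered 94.0% of it with a score of 367.63. The only domain of chromosome V among the 20, at chrV:1761827-1776725, had 11 inner peaks and the longest median spacing, 1441 bp.

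Outside these, the narrowest domain packed 5 inner peaks into 2216 bp at chrIII:426237-428452, with a median spacing of 557.5 bp and scores of 192.31 in replicate 1 and 314.79 in replicate 2. Among domains with 8 or more inner peaks, the most regular was chrI:3711513-3722599, where the spacing of 10 peaks had a coefficient of variation of 17.9% around a median of 1045 bp. Replicate 2 covered 92.6% of it. The least regular was chrII:8927350-8936249, with a coefficient of 94.3% and the longest gap of all domains, 3039 bp, between its 8 peaks.

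The domains lay on all 6 chromosomes, most densely on III. There were 74 on chromosome III (5.37 per Mb), 73 on I (4.85), 62 on II (4.06), 46 on IV (2.63), 46 on V (2.20) and 26 on X (1.47). As a share of the shared peaks of each chromosome, the domains were 19.6% on III, 18.3% on II, 17.7% on I, 14.3% on V, 12.6% on IV and 11.7% on X. X thus had the lowest share, against a mean of 16.5% ± 2.91 on the autosomes (SD, n = 5 chromosomes), a difference of -4.79 percentage points. The exact permutation test over 6 chromosomes gave p = 0.167 (two-sided), the smallest it allows, so it could not pass 0.05. Among the domains made from replicate 2 the share on X was 10.1%, and it was lower on V (8.88%) and IV (9.71%).

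The build of the domains changed little between chromosomes. Median width ranged from 5685.5 bp on X to 6700.5 bp on V, median spacing from 731.5 bp on X to 892.5 bp on I, and median gap from 147 bp on II to 181.5 bp on V. Over the 6 chromosomes the median spacing averaged 804.9 ± 66.2 bp (SD, n = 6 chromosomes). The median replicate 1 score was lowest on X, at 464.495, and highest on I, at 691.31, while the median best replicate 2 score was highest on X, at 381.19, and lowest on V, at 288.14. The replicates therefore did not rank the chromosomes alike.

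For position along the chromosome, which the rule did not use, no difference from other shared peaks passed the test. Each chromosome was divided into 3 equal parts, 1 middle and 2 outer. Of the domains 72.2% lay in the outer parts, of all other shared peaks 73.4% and of unbroken peaks 70.3%. Within chromosomes the share of domains minus that of all other shared peaks averaged -3.28 ± 12.7 percentage points (SD over 6 chromosomes). An exact permutation of signs over chromosomes gave a two-sided p = 0.812 and an adjusted p = 1 over 4 such tests. It was above 0 on 3 of 6 chromosomes. Against unbroken peaks the mean difference was -1.25 ± 14.1 points (same test, exact p = 1, adjusted p = 1, n = 6 chromosomes), above 0 on 5 of 6. The spread of these differences leaves room for shifts of several points either way.

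The chromosomes on which the domains lay least in the outer parts differed between the replicates. In replicate 1 this was X, where 13 of 26 domains (50.0%) lay in the outer parts, against 78.1% of its other shared peaks. On the 5 autosomes the domains' outer share was between 70.3% on III and 78.3% on IV, and that of all other shared peaks between 72.1 and 73.7%. Among the domains made from replicate 2 the share was lowest on III, at 61.8% against 73.7% of other shared replicate 2 peaks, then on II, at 64.6% against 73.8%, and on X it was 68.2% (15 of 22) against 76.5%. On II, III and X the domains' share was thus below that of the other shared peaks in both replicates, and the low value on X in replicate 1 was not matched in replicate 2. Differences between chromosomes were not tested.

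Domains had another replicate 1 peak close by about as often as other shared peaks did. The nearest other replicate 1 peak was within 1 kb of 131 domains (40.1%, interval 34.9 to 45.5%), against 35.2% of unbroken peaks (interval 29.4 to 41.4%) and 37.8% of all other shared peaks (interval 35.6 to 40.2%). For these 131 domains the neighbour was another domain in 27 cases, an unbroken peak in 7, a shared peak with fewer inner peaks, none wide, in 47, one with fewer inner peaks and a wide one in 10, one with no inner peak in 1, and a replicate 1 peak not shared with replicate 2 in 39. The median gap to the nearest peak was 1.84 kb for domains, 4.30 kb for unbroken peaks and 2.25 kb for all other shared peaks.

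By chromosome the gap was shorter for domains than for unbroken peaks on 6 of 6. The gap is measured between replicate 1 peak edges, which also set peak width and the number of inner peaks. It is therefore not independent of the rule, and unbroken peaks were the wider class. The difference was largest on V, with 1.52 against 11.8 kb, and smallest on IV, with 3.04 against 3.22 kb. On X the gaps were 0.628 and 8.72 kb. The mean difference was -3.85 ± 4.27 kb (SD over 6 chromosomes). The exact permutation of signs gave a two-sided p = 0.0312, which is the least it can give, and an adjusted p = 0.125 over 4 tests, so the difference did not pass after adjustment. At least 3 of the 4 tests would have to reach that least p for any to pass, so a single difference could not. Among domains and unbroken peaks made from replicate 2 the mean difference was 0.547 kb, of the opposite sign. Against all other shared peaks the mean difference was -1.30 ± 3.00 kb (same exact test, p = 0.438, adjusted p = 0.875, n = 6 chromosomes), negative on 3 of 6.

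**Figure D5:**
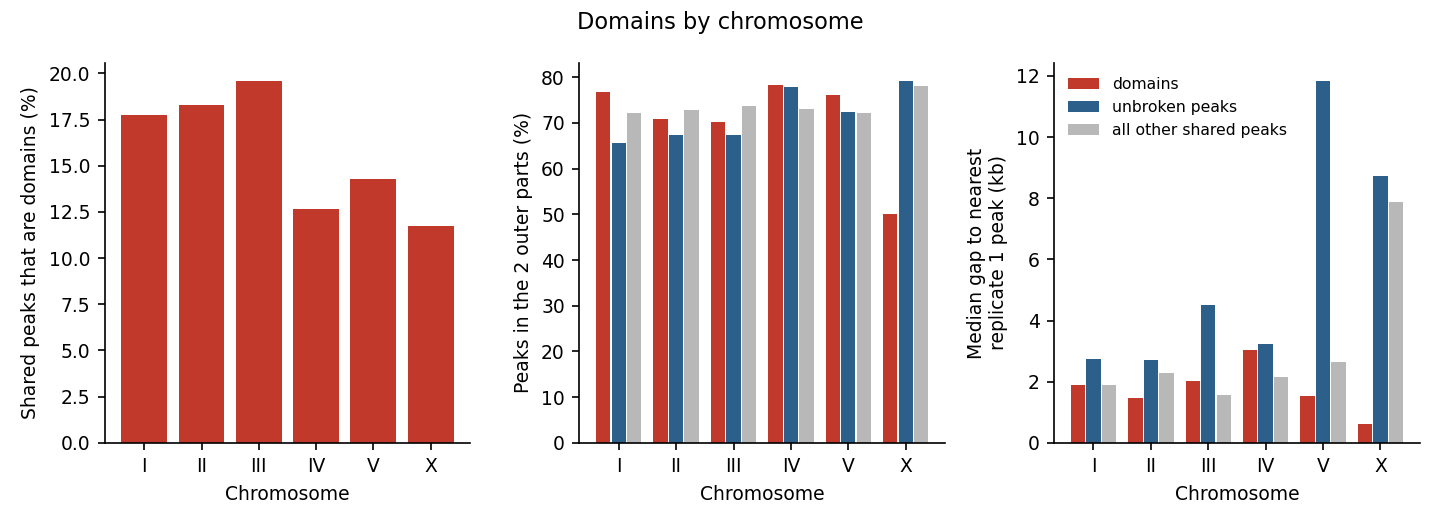
Domains by chromosome. Left, share of shared replicate 1 peaks that are domains (%), middle, share of peaks in the 2 outer parts of the chromosome (%), and right, median gap to the nearest other replicate 1 peak (kb), for domains (red), unbroken peaks (blue) and all other shared peaks (grey). X has the lowest share of domains (11.7%), the lowest outer share of domains (50.0%) and the shortest gap around them (0.628 kb) in replicate 1, against an outer share of 68.2% and a gap of 8.33 kb for the domains on X made from replicate 2.

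Domains followed each other about as often as their share of the list. The next replicate 1 peak on the chromosome was a domain for 42 of 325 domains (12.9%, interval 9.71 to 17.0%), against 11.5% of all replicate 1 peaks that were domains. Counted along the list, 247 domains stood alone between peaks of other kinds, 34 runs held 2 domains and 4 runs held 3. The tightest run of 3 lay on chromosome I, from 5122576 to 5150064, with domains of 4.4, 5.27 and 6.88 kb and 6, 8 and 6 inner peaks within 27.5 kb. The others lay on chromosome II from 528047 to 584636, on III from 2297605 to 2342214 and on X from 7350242 to 7476043. In the 97 complete bins of 1 Mb there were 3 domains at the median and at most 8, and 10 bins held none. The fullest bins were 0 to 1 Mb and 5 to 6 Mb on chromosome III with 8 each, where 23 and 27 replicate 1 peaks were shared.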

How the data were processed

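The analysis used 3 deposited peak lists, 1 for each AMA-1 ChIP replicate and 1 for the whole series, in WormBase WS220 coordinates per the file headers. The replicate lists name MACS, without a version, and the series-wide list MACS v2. BWA and the ce10 assembly appear in the submitters' processing notes. The deposited scores have no stated unit. How peaks were called, whether input reads entered, and how replicates were pooled for the series-wide list is not given in the sources used here. Starts, ends and scores were taken as deposited, counted from 1.

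Overlap meant at least 1 bp. Spacing is the distance between midpoints of neighbouring inner peaks, and a gap the bases between their edges. A chromosome's length was taken as its highest peak coordinate in the 3 lists. Differences between classes were computed within each chromosome and tested by exact sign-flip permutation over the 6 chromosomes (smallest p 0.0312), with Benjamini-Hochberg adjustment over 4 tests and a threshold of 0.05. Chromosomes are not biological replicates. Named regions were the 20 domains with the most inner peaks (ties to the wider), the narrowest, the widest, and the most and least regular among those with 8 or more. The members, lists and measures were chosen with earlier results of these data known. The rule, the median spacing and the median gap were checked on simulated lists with evenly spaced inner peaks, and the sign-flip p on made-up values. The other measures were not checked in this way. Python 3.11.15, numpy 2.4.6, scipy 1.17.1, pandas 2.3.3 and matplotlib 3.10.9 were used.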

Additional observations from a re-analysis of the deposited data

How the results depend on the processing

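The number of domains depended most on the rule, and the small position differences did not keep their sign. The number of domains, 327, became 509 with 4 inner peaks, 200 with 50% reciprocal overlap with replicate 2 and 117 with the better-scoring 50% of series-wide peaks. It was 273 (without replicate 1) to 398 (without replicate 2) with 1 replicate list. Median spacing, 809 bp, was 816 bp with 4 and 799 bp with 6 inner peaks, 748.5 and 838 bp with width limits of 2000 and 4000 bp, 796 bp with reciprocal overlap, 811.5 bp with inner peaks at least 50% inside, 1138 bp with the better-scoring 50%, 811 bp from replicate 2 peaks shared with replicate 1 (chosen after seeing the data) and 779 to 804.5 bp with 1 replicate list. Median width, 6144 bp, was 5290.0 bp with 4 and 6907 bp with 6 inner peaks, 5528 and 6538 bp with the width limits, 8104 bp with the better-scoring 50%, 5911 bp from replicate 2 and 5849 to 5953 bp with 1 replicate list. Fewer series-wide peaks in the list widen spacing by construction. Median gap stayed between 150.5 and 200.5 bp over 10 alternatives.

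The outer share relative to all other shared peaks, -3.28 points, turned to 0.454 with reciprocal overlap and 5.92 with the better-scoring 50%, and was -4.9 (without replicate 1) to -4.41 (without replicate 2) with 1 list. Relative to unbroken peaks, -1.25 points, it turned to 0.235 with 4 inner peaks, 2.77 with reciprocal overlap, 1.68 with the better-scoring 50% and 1.68 from replicate 2, 3.91 with outer parts of 1 in 4 of the length, and 0.393 to 1.74 with 1 list. The gap to the nearest peak relative to all other shared peaks, -1.30 kb, was 0.128 kb from replicate 2 and -0.541 to 0.0424 kb with 1 list, and relative to unbroken peaks, -3.85 kb, it was 0.547 kb from replicate 2 and -3.7 (without replicate 2) to 0.600 kb (without replicate 1). No adjusted p of these 4 results passed 0.05 under any alternative run, which says little, since a lone result at the least possible p has an adjusted p of 0.125. The cause of the sign changes was not tested. The share on X minus that on autosomes stayed negative under 10 of 10 alternatives, from -6.26 to -1.12 points. No paired analysis was possible because only ChIP libraries have a peak list here and no groups of samples were compared. Read depth is unknown, so the absence of a peak from a list does not show absence of polymerase.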
